A study of Mus musculus with 45 samples.

Results

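The EHMT2-depleted state of mouse embryonic stem cells (mESCs) was followed from 24 h to 7 d of continuous degrader treatment. The 6 libraries of the comparison are the 3 dTAG-13 samples taken at 24 h and the 3 taken at 7 d, chosen by treatment and time from the 45 libraries of the series, and the 6 DMSO libraries of the same times serve as the reference for time in culture. All 12 come from EHMT2-dTAG-mcherry mESCs of BL6/129 background, in which a FKBP12 F36V degron, HA tags and an mCherry reporter were placed in frame at the stop codon of both endogenous Ehmt2 copies, so the DMSO controls carry the tagged allele too. The degrader dTAG-13 removes the tagged protein, and DMSO is its solvent. Each group holds 3 clones, E2-17, E2-20 and E2-K71, grown in FBS/LIF medium on mouse embryonic fibroblast feeders that can add RNA of their own.

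For the time course the files used here give 1 mean per group and feature, the authors' mean of normalised read counts over 3 libraries, so there is no replicate error, no SD and no test between 24 h and 7 d, and a value carried by 1 clone cannot be told from a value shared by all 3. A gene was called higher or lower at 7 d when log2 of (mean + 1) differed by at least 1, a 2-fold difference, and the higher of the 2 dTAG means was at least 20. A gene far below 20 at 1 time passed only through the other, so its call is set by the filter. The added 1 makes the ratio of a gene with a low mean smaller than the ratio of its means. In bulk RNA, more cells of a kind and more RNA per cell cannot be told apart.

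EHMT2, also called G9a, works with its partner EHMT1 to place 1 or 2 methyl groups on lysine 9 of histone H3, a mark of repressed chromatin. Cultures of mESCs always hold a few cells that transiently switch on genes of the 2-cell embryo (2-cell-like cells, 2CLCs), among them the Zscan4 genes and the endogenous retrovirus MERVL, under transcription factors such as DUX. Loss of EHMT2 is known to raise this programme and a set of germline genes. Many germline genes lie on the X chromosome in families of near-identical copies, and many are kept silent in other cells by DNA methylation.

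The state at 24 h was not the end point. Of 55401 genes listed, 16633 reached a dTAG mean of 20, and 407 of those (2.45%) were at least 2-fold higher at 7 d than at 24 h while 383 (2.3%) were at least 2-fold lower. In DMSO over the same interval 98 of 16359 genes (0.599%) were higher and 172 (1.05%) were lower. A 4-fold limit was passed upwards by 80 genes with dTAG-13 and by 0 with DMSO, and downwards by 20 and 15. Of the 407 higher genes 24 were also past 2-fold upwards in DMSO, and of the 383 lower genes 16 were also past it downwards, so few of the calls had a DMSO change of the same size. Smaller DMSO changes mattered more. With the DMSO difference taken away, 305 of the 407 (74.9%) and 270 of the 383 (70.5%) stayed past 2-fold. Against DMSO at 7 d, 370 of the 407 were at least 2-fold higher (4.37% of all genes) and 277 of the 383 at least 2-fold lower (3.54% of all genes). These ratios share the dTAG-13 mean at 7 d with the calls. Of the 407, 242 were also at least 2-fold higher than DMSO at 24 h. Such agreement is thus in part built in and is no separate support. The limit was passed by under 0.1 by 64 of the higher and 103 of the lower genes, and 75 and 111 further genes fell short of it by no more than 0.1.

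**Figure D1:**
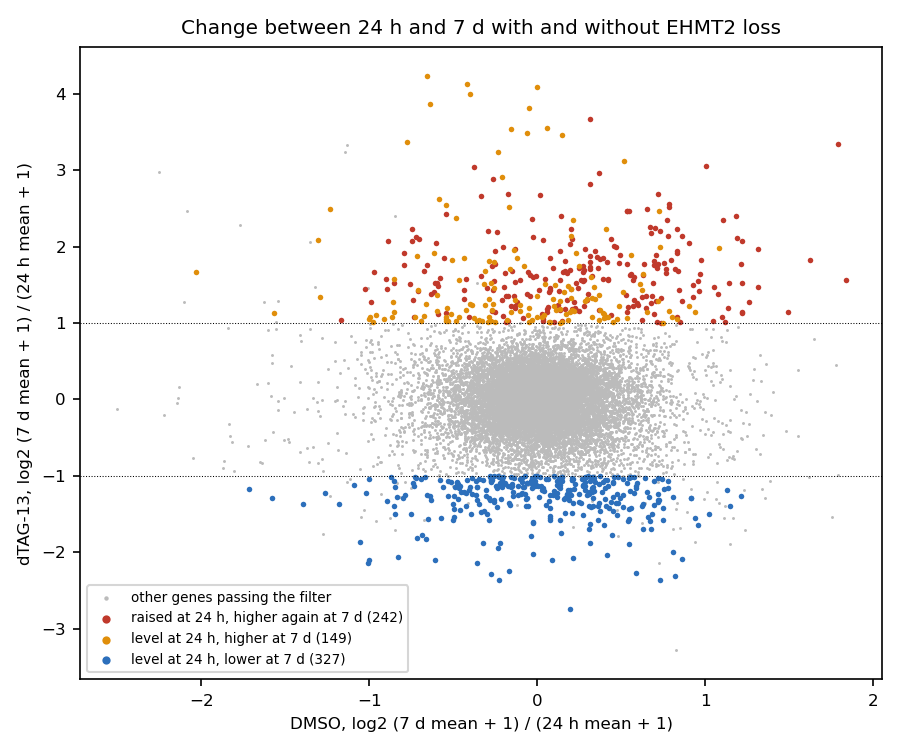
Each point is a gene that passed the filter. The x axis gives the log2 ratio of the 7 d to the 24 h mean in DMSO and the y axis the same ratio with dTAG-13, both from the authors' group means with 1 added, and dotted lines mark 2-fold. The 242 genes higher at both steps (red), the 149 late higher genes (orange) and the 327 late lower genes (blue) spread across the x axis on both sides of 0.

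Transcripts of the target and of pluripotency genes were level. Ehmt2 itself, whose transcript the degrader does not touch, had means of 616 in DMSO at 24 h, 622 in DMSO at 7 d, 609 with dTAG-13 at 24 h and 582 with dTAG-13 at 7 d. Ehmt1 stood at 866, 895, 890.5 and 909.6 in the same order. The pluripotency factor Pou5f1 went from 12276 to 10932 between the dTAG times and Sox2 from 4931 to 5055, and of 17 naive pluripotency genes that passed, 0 were past 2-fold (median log2 ratio -0.17, in DMSO -0.26). Group totals were alike, between 14402300 and 14906000 normalised gene counts. Beside dTAG-13 at 7 d, the group that stood apart was DMSO at 24 h, with 69 genes at least 2-fold above all other groups and 66 below them, against 1 and 18 for DMSO at 7 d and 7 and 1 for dTAG-13 at 24 h. For dTAG-13 at 7 d these numbers were 347 and 246. Xist, the RNA that silences an X chromosome, is an example, with means of 149.6, 0.242, 1.00 and 2.50 in the same order. The dTAG-13 difference between 24 h and 7 d does not use this group.

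Setting the dTAG difference at 24 h against DMSO beside the later difference between the dTAG times gave 9 courses over the 16633 genes. At 24 h, 2.74% of genes were at least 2-fold higher and 1.63% at least 2-fold lower than DMSO, shares over the 16614 genes that reached 20 in either group of 24 h and so over another set than the courses. In 242 genes a difference of at least 2-fold upwards at 24 h was followed by a further one, in 310 it was followed by a level course, and in 38 by a lower mean. Another 149 genes were within 2-fold of DMSO at 24 h and higher at 7 d, and 327 were within 2-fold of DMSO at 24 h and lower at 7 d. The remaining genes that were lower at 24 h went on to be higher in 16, level in 126 and lower in 18 cases, and 15407 genes stayed within 2-fold at both steps. Both ratios contain the mean with dTAG-13 at 24 h, so a chance high value there favours a lower 7 d ratio and a chance low value a higher one. The 38 genes that were lower again had a median DMSO change of 0.88 upwards, and the 16 that were low at 24 h and high at 7 d had a median DMSO change of -1.34, and the part of DMSO at 24 h in these small classes was not tested.

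The 2-cell programme kept climbing. All 9 Zscan4 family genes that passed were past 2-fold, with log2 ratios between 1.60 and 2.05 (median 1.73), beside a background of 2.45% of genes. Zscan4 proteins act on telomeres and chromatin of the 2-cell embryo. Zscan4d had means of 33.9 in DMSO at 24 h, 50.9 in DMSO at 7 d, 464 with dTAG-13 at 24 h and 1407 with dTAG-13 at 7 d. The level in DMSO also moved upwards in this family, by a median of 0.70, without passing 2-fold in any member. Of 19 other 2-cell stage genes 18 were past 2-fold (median 1.71, in DMSO 0.34), among them Zfp352, a zinc finger gene of the 2-cell embryo, at 22.6 and 93.9 with dTAG-13. All 5 Usp17l deubiquitinase genes passed (median 1.18), and Usp17lb stood at 7.55, 15.7, 339 and 909. The 2-cell genes were thus already raised at 24 h, and the later step was smaller on the log2 scale than the first, for which the Zscan4 median was 3.21 and the Usp17l median 4.06.

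The promoters of Zscan4d, Usp17lb and 4 genes described later are printed because the early, the late and the lower genes differ in their courses while the sequence next to their start sites can be compared directly. Each is the 250 bases before the annotated start nearest to the gene's 5′ end, read 5′ to 3′ on the gene's strand from RefSeq (GRCm38.p6), with CG dinucleotides, the sites of DNA methylation, in capitals. They are Zscan4d at chr7:11166149-11166398 on the minus strand, Usp17lb at chr7:104842584-104842833 on the minus strand, Xlr3a at chrX:73097096-73097345 on the minus strand, Pramel6 at chr2:87506315-87506564 on the plus strand, Irf8 at chr8:120736108-120736357 on the plus strand and Txnip at chr3:96557707-96557956 on the plus strand.
Zscan4d: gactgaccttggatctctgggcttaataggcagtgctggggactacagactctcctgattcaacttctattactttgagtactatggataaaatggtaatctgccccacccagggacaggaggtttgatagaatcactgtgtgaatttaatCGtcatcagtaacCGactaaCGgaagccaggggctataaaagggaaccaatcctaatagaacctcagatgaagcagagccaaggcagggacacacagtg
Usp17lb: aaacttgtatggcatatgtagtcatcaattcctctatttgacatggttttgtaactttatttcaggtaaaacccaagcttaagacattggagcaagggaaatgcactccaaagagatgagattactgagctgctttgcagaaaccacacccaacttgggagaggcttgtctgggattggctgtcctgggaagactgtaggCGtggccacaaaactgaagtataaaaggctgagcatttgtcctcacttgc
Xlr3a: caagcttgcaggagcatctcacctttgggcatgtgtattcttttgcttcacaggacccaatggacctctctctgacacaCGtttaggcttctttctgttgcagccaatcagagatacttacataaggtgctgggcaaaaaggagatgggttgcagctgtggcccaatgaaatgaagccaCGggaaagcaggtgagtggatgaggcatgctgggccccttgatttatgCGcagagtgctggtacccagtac
Pramel6: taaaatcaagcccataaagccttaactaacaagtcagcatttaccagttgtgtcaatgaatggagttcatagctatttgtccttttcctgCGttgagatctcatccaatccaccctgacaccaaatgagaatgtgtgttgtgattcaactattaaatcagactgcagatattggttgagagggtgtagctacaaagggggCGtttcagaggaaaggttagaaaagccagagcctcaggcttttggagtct
Irf8: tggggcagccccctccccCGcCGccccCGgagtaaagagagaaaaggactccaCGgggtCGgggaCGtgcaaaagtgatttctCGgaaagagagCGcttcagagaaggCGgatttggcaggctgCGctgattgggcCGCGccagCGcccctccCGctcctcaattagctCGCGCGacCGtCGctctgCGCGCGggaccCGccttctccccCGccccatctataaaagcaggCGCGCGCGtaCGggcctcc
Txnip: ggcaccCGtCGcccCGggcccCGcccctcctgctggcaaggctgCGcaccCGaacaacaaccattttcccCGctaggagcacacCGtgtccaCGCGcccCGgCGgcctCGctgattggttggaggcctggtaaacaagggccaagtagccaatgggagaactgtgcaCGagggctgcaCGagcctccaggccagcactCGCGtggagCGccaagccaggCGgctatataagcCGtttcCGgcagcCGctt

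The windows hold 3 CG dinucleotides in Zscan4d, 1 in Usp17lb, 3 in Xlr3a, 2 in Pramel6, 29 in Irf8 and 22 in Txnip. Those of Klhl13 and Krt18, also late higher genes, hold 12 each, so the 6 chosen windows do not stand for their courses. Over 20996 genes with a matched promoter, 42.1% hold 5 or fewer in this window and the median is 8, and over the 10446 of them that passed the filter the median is 16. The letters TATAAA, on either strand, are in the windows of Zscan4d, Usp17lb and Irf8 and in 12.3% of all. CACGTG, which reads the same on both strands and is in 6.44% of all, is in none of the 6. A match describes these letters and not a site, and matches of the motifs cannot overlap. A comparison of CG content between whole courses is void, because a promoter was matched for 92 of the 242 genes with 2 upward steps and for 96 of the 149 late genes, fewer than 80% of each.

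Some early families did not climb further. The Obox genes encode homeobox factors of the oocyte and 2-cell embryo, and of the 17 that passed, 0 were past 2-fold between the dTAG times (ratios -0.49 to 0.20, median -0.11), although their median difference from DMSO at 24 h was 3.36. Obox4-ps27 had means of 8.32, 6.07, 79.9 and 70.1 in the order DMSO 24 h, DMSO 7 d, dTAG 24 h and dTAG 7 d. The factors that act upstream of the 2-cell genes moved less. Of the 6 in that list 0 were past 2-fold and all 6 had a ratio above 0 (median 0.55, in DMSO -0.05). Dux itself, listed as Duxf3, had means of 7.20, 7.06, 18.0 and 32.7. Dppa2, which opens the Dux locus together with Dppa4, went from 427 to 795 with dTAG-13, and Dppa4 from 584 to 977, neither past 2-fold. Among the 310 plateau genes, the desmosomal gene Pkp2 stood at 466, 594, 1283 and 1009.

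Several multi-copy families were raised at 24 h and multiplied again. The MATH-BTB genes (Tdpoz and Spopfm), cullin adaptor relatives expressed in oocytes and early embryos, were past 2-fold in 9 of 10 cases, with log2 ratios from 0.91 to 2.96 and a DMSO median of -0.25. Tdpoz4 had means of 1.32, 0.968, 8.47 and 42.2, and Spopfm1 0.649, 0, 13.8 and 63.6. Both passed the filter through dTAG-13 at 7 d alone, so the count of 9 is in part set by the filter. The summed means of the MATH-BTB list were 85.7 with dTAG-13 at 24 h and 407 at 7 d, against 13.6 and 12.6 in DMSO. The later dTAG levels thus exceeded both DMSO levels and the earlier dTAG level. Rpl10l, a retrogene copy of a ribosomal protein gene used in male germ cells, was at 212, 214, 499 and 1347, while of 88 cytosolic ribosomal protein genes it was the only one past 2-fold. Reads that fit several copies were placed at 1 random best place by the authors, so values of single copies in these families are uncertain and family sums are less so.

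**Figure D2:**
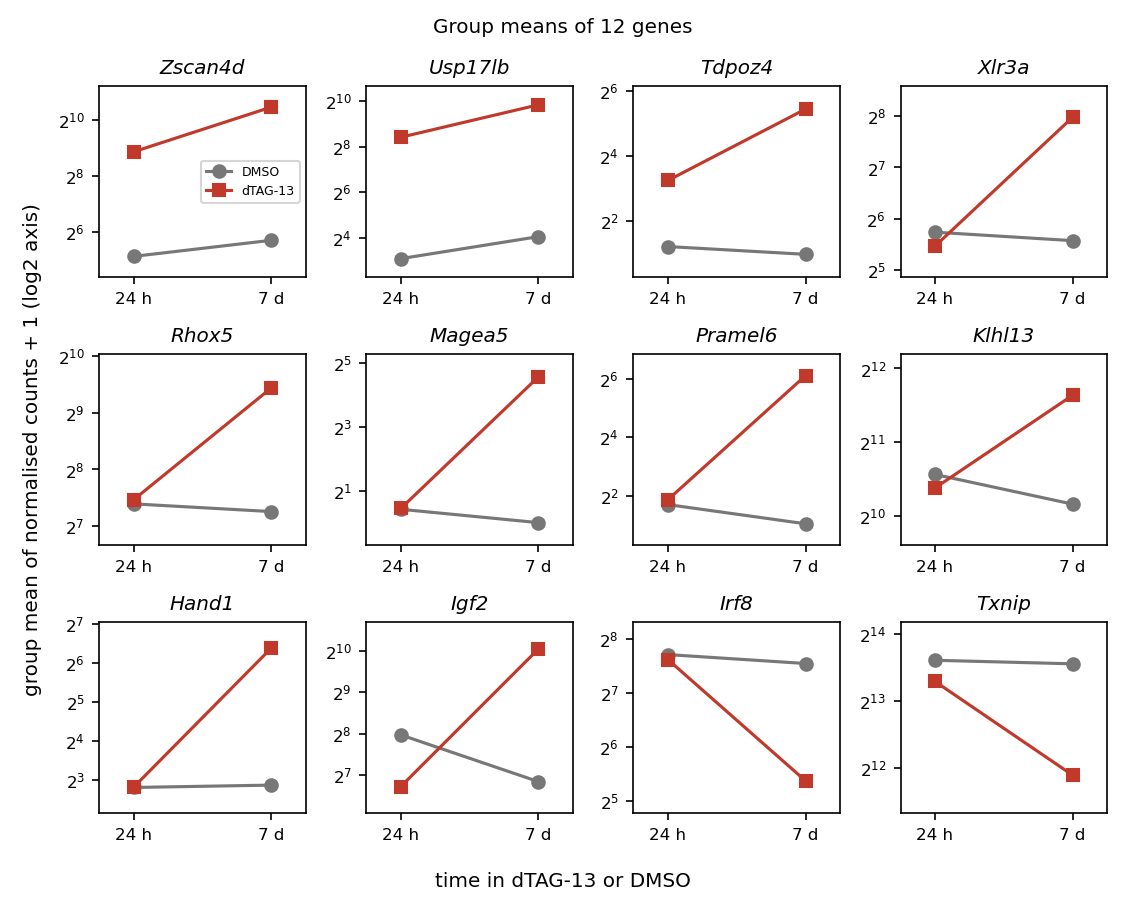
Group means of normalised counts (1 added, log2 axis) at 24 h and 7 d for 12 genes, grey circles for DMSO and red squares for dTAG-13. Zscan4d, Usp17lb and Tdpoz4 start above DMSO at 24 h and rise again, Xlr3a, Rhox5, Magea5, Pramel6, Klhl13 and Hand1 lie near DMSO at 24 h, Igf2 lies below DMSO at 24 h, and Irf8 and Txnip are at least 2-fold lower than DMSO at 7 d and within 2-fold of it at 24 h.

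A further set of genes, with members of several germline families, was within 2-fold of DMSO at 24 h and higher at 7 d. Of the 149 genes that were level at 24 h and higher at 7 d, 30 (20.1%) lie on the X chromosome, against 4.05% of all genes that passed and 5.37% of the 242 that were already higher at 24 h. All 8 Xlr genes that passed were past 2-fold (median 2.84, in DMSO -0.06), and at 24 h their median difference from DMSO was 0.32. Xlr3a encodes a chromatin protein related to the meiotic SYCP3 family, and its means were 52.2, 46.4, 43.0 and 252 in the same order of groups. Xlr3c was at 9.81, 5.93, 6.23 and 105. Only the 7 d dTAG mean stood away from the rest in both genes. Xlr3c passed the filter through that mean alone, so the count of 8 is in part set by the filter. The neighbours Xlr4a, Xlr3a, Xlr5a, Xlr5b, Xlr3b and Xlr4b formed an unbroken run of 6 called genes between 73074345 and 73292976 on chromosome X (GRCm38).

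The Rhox homeobox genes, a cluster on the X chromosome used in the reproductive tract and placenta, were past 2-fold in all 5 cases that passed. Rhox5 was level in the first 3 groups, at 167, 152, 176 and 691. Rhox6 stood at 183, 37.6, 39.2 and 316, and Rhox9 at 122, 27.9, 37.7 and 214, so that the dTAG level at 7 d is higher than in any other group while DMSO at 24 h was high as well. Rhox6 and Rhox9 were thus at least 2-fold lower than DMSO at 24 h and are not counted as late genes. The cancer-testis antigens Magea5 and Magea8 were nearly silent in the first 3 groups, with means of 0.337, 0, 0.361 and 22.8 for Magea5 and 0, 0, 0.361 and 22.2 for Magea8. Pramel6 and Pramel7 are oocyte and embryo genes whose proteins promote a naive, hypomethylated state, and their means were 2.24, 1.05, 2.63 and 67.6 and 3.80, 1.80, 4.80 and 59.2. Magea5, Magea8, Pramel6 and Pramel7 passed the filter through dTAG-13 at 7 d alone, so their calls are set by it. Klhl13, an adaptor of a cullin ubiquitin ligase, was the most abundant of the X-linked late genes, at 1515, 1146, 1333 and 3184.

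Most other germ cell genes were within 2-fold. Of 26 germ cell and meiosis genes that passed, 0 were past 2-fold upwards and 1 was past it downwards (median -0.39, in DMSO -0.08). The meiosis regulator Meioc was the lower one, at 388, 611, 430.0 and 186, and the germ-cell gene Tex15 was at 645, 752, 608 and 641. Of 4 oocyte maternal-effect genes 0 were past 2-fold.

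Genes of the placental lineage were also among the late ones, but only some. Of 11 trophoblast genes that passed, 4 were higher and 1 lower (median 0.02, in DMSO -0.40). In DMSO 1 was past 2-fold upwards, and the median difference of dTAG-13 from DMSO at 24 h was -0.61. Hand1, a transcription factor of trophoblast giant cells, was at 6.02, 6.31, 6.06 and 82.1. Plac1, a placental surface protein, was at 1.05, 0.550, 1.71 and 42.3, and the simple-epithelium keratins Krt8 and Krt18 went with dTAG-13 from 191 to 669.7 and from 166 to 589.9. Other regulators of the lineage did not follow them. With dTAG-13 Eomes went from 97.4 to 59.0, Tfap2c from 447 to 676, and Ascl2, the lower one, from 69.9 to 28.0. Igf2, a paternally expressed growth factor, had means of 249, 113, 104 and 1059.9, while its imprinted neighbour H19 was at 507, 169, 163 and 244. Of 28 imprinted genes 3 were past 2-fold, namely Igf2, Sfmbt2 (716 to 1751) and Peg10 (2099 to 4429.6), all 3 with known roles in the placenta.

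Feeder markers were counted beside these genes. Of 15 fibroblast markers 12 passed and 2 were past 2-fold with dTAG-13, Tagln (385, 507, 679 and 1425) and Acta2 (117, 252, 371 and 787), both contractile proteins. The collagen gene Col1a1 (751, 671, 1045 and 1014) and the surface marker Thy1 (258, 259.6, 339 and 371) were level between the dTAG-13 times. The summed list was 2654 and 2466 in DMSO and 3554 and 4792 with dTAG-13, and Dcn, a defining fibroblast gene, was near 0 outside DMSO at 24 h, at 20.5, 0.550, 1.13 and 1.43. The part of feeder RNA in the placental and late genes was not tested.

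**Figure D3:**
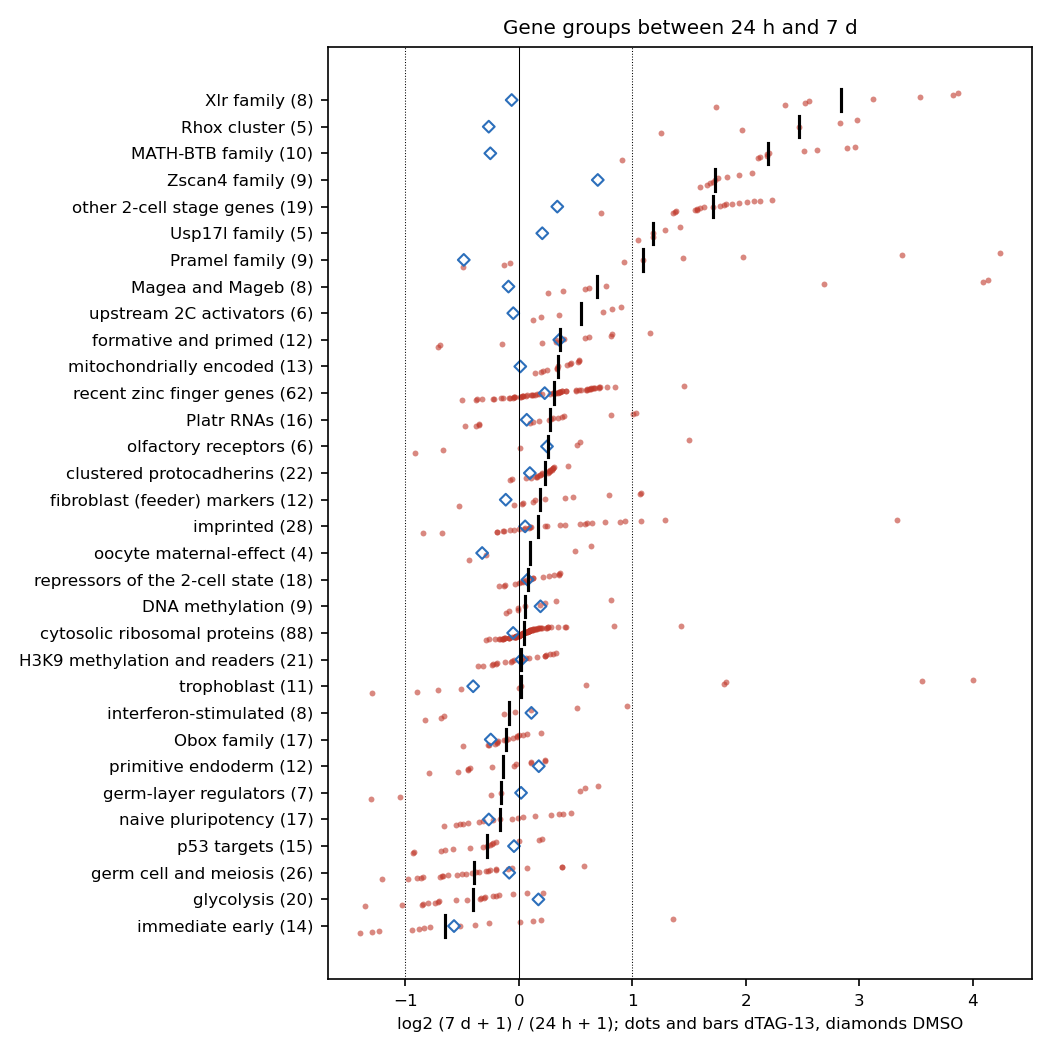
Gene lists with at least 4 members past the filter (number in brackets), ordered by median. Red dots are members and black bars their medians on the log2 ratio of the dTAG-13 mean at 7 d to that at 24 h, blue diamonds are the DMSO medians, and dotted lines mark 2-fold. The Xlr, Rhox, MATH-BTB, Zscan4 and other 2-cell lists lie right of the 2-fold line while Obox lies at -0.11.

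The genes that went down were more dispersed along the chromosomes. Of the 383, 87.7% were protein coding and 2.35% were pseudogenes, against 66.1% and 18.2% of the 407 higher genes and 78.0% and 16.6% of all genes that passed, and 6 of them lie on the X chromosome. Neighbouring called genes formed 16 runs of 4 or more upwards, holding 97 of the 407 genes, and 0 runs downwards. In DMSO the counts were 0 runs upwards and 2 downwards. The longest run was of 13 genes between 100297941 and 100382560 on chromosome 10, followed by the 12 Tdpoz and Spopfm genes and their neighbours between 93796398 and 94266784 on chromosome 3.

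Irf8, a transcription factor of myeloid cells, had means of 208, 185, 195 and 40.5 in the order DMSO 24 h, DMSO 7 d, dTAG-13 24 h and dTAG-13 7 d. The epithelial sodium channel subunit Scnn1a was at 125, 145, 112 and 26.0. The T-type calcium channel subunit Cacna1h was at 203, 253, 213 and 57.0. In all 3 genes the first 3 groups lay close together and the 7 d dTAG-13 mean was far below them. B4galnt2, a glycosyltransferase gene, had the lowest log2 ratio (-2.37) among genes with a dTAG-13 mean of 50 and a DMSO ratio within 0.5, at 74.4, 63.5, 56.4 and 10.1, and the atypical cadherin gene Fat2 came next (-2.29). The most abundant lower gene with such a level DMSO course was Txnip, an inhibitor of thioredoxin and glucose uptake, at 12476, 12028, 10026 and 3803. The immediate early genes Egr1 (23109, 7745, 14914 and 6090.0) and Fos (12230.1, 6045, 11168 and 4770.3) were more abundant, but their list was lower in DMSO too, with medians of -0.65 with dTAG-13 and -0.57 with DMSO and 5 of 14 members past 2-fold downwards in DMSO.

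Of 20 entries for glycolytic genes, which turn glucose into pyruvate and lactate, 2 were past 2-fold downwards, and the median was -0.40, against 0.17 in DMSO and 0.02 over all genes. Aldoc, a brain-type aldolase, was at 638, 882, 931 and 364, and the other was a second, low entry for Aldoa. Lactate dehydrogenase Ldha was within 2-fold, at 9263, 12099, 12413 and 11022. All 13 mitochondrially encoded genes were above 0 with a median of 0.35 and none past 2-fold. The lists of DNA methylation enzymes, H3K9 methyltransferases and their readers, and repressors of the 2-cell state held 9, 21 and 18 genes with 0 past 2-fold.

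Repeat families were sorted into courses by the same limits, with 3 higher at both steps and 8 level at 24 h and higher at 7 d. Of 607 families that passed, 11 (1.81%) were at least 2-fold higher at 7 d than at 24 h and 2 (0.329%) lower, against 0 and 3 of 643 (0.467%) in DMSO. MERVL-int, the body of the retrovirus that marks 2-cell-like cells, had means of 5296, 5074, 28792 and 80321, and its terminal repeat MT2_Mm 799.8, 766, 3569 and 10398. Both had been raised at 24 h. RLTR45-int stood at 296, 241, 578 and 2525, ERVB4_2-I_MM-int at 70.7, 78.1, 83.9 and 326, and the major satellite GSAT_MM, the pericentromeric repeat, at 12.4, 14.2, 12.4 and 63.0. The last of these was level at 24 h and low throughout, and it passed the filter through dTAG-13 at 7 d alone. RLTR45-int was just short of 2-fold over DMSO at 24 h (log2 difference 0.965), as were ERVB4_2-LTR_MM (0.992), RLTR6B_Mm (0.868) and IAPEy-int (0.778). ERVB4_2-I_MM-int (0.245) and ETnERV3-int (-0.053) lay nearer to DMSO. The split into climbing and late families thus depends on the limit. IAPEz-int, a family silenced by another H3K9 methyltransferase, was level at 14667 and 12769.7, and of the young LINE-1 families L1Md_T went from 17336 to 19499 and L1Md_A from 9942 to 17479, neither past 2-fold. The libraries were poly-A selected, so a non-polyadenylated repeat RNA is counted only in part.

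Other experiments of the series give the same genes in separate libraries. In the washout experiment, where the same 3 clones were kept in DMSO or dTAG-13 for 15 d or in dTAG-13 for 7 d followed by 8 d in DMSO, ratios were taken within that table, and a mean of at least 20 was again required. Of the 242 genes that climbed, 227 passed there and 212 (93.4%) were at least 2-fold higher with dTAG-13 at 15 d, against 4.42% of all genes. Of the 227, 168 reached 20 with dTAG-13 and not with DMSO, so they passed through the group where they are high and the share is largely set by the filter. Of the 149 late genes, 126 passed, 30 of them through dTAG-13 at 15 d alone, and 39 (31.0%) were higher and 0 lower. Of the 327 late lower genes, 209 passed, and as many were higher (10) as lower (10), where 0.7% of all genes were lower.

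**Figure D4:**
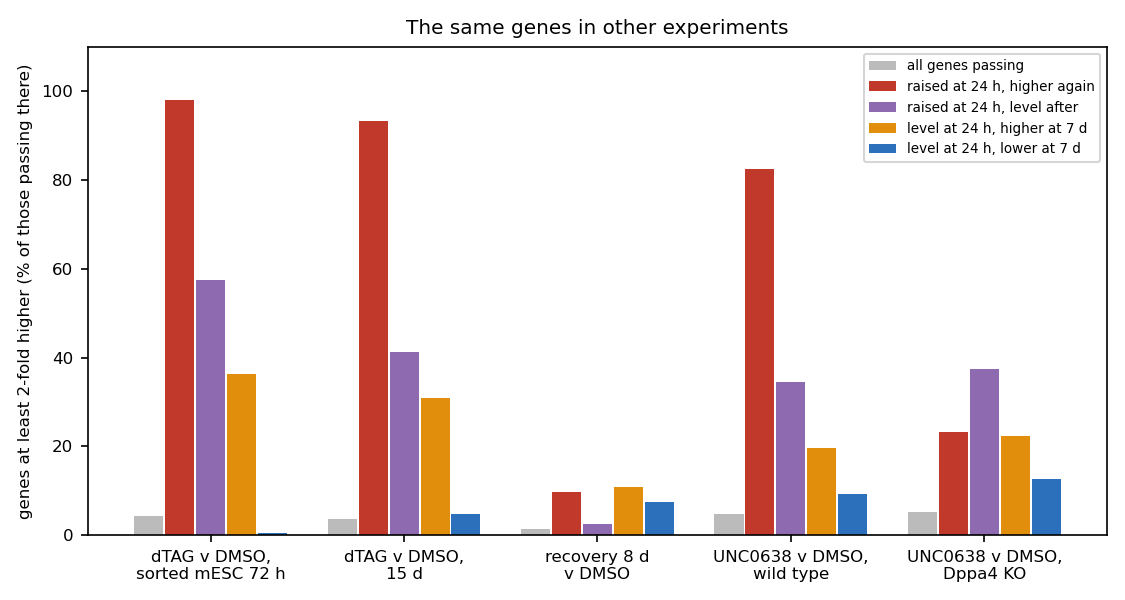
The percentage of genes at least 2-fold higher (y axis) in 5 readouts for all genes that passed (grey) and 4 courses, each among the genes that passed the filter of that readout. The genes that rose again (red) stand at 98.1% in sorted mESCs, 93.4% at 15 d, 9.76% in recovery, 82.4% in UNC0638-treated wild-type cells and 23.2% in UNC0638-treated Dppa4 KO cells, where genes that passed only through groups in which they are high are included.

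The late genes divided by whether they were still raised at 15 d. On the X chromosome 15 of 26 were, and elsewhere 24 of 100. With DMSO and dTAG-13 at 15 d, Xlr3a was at 99.4 and 793, Rhox5 at 123 and 567, Klhl13 at 325 and 1326, Pramel6 at 0.326 and 22.9 and Magea5 at 0 and 38.3. By contrast Hand1 was at 7.06 and 4.79, Plac1 at 2.38 and 2.33, Krt8 at 279 and 261, Krt18 at 153 and 123 and Igf2 at 327 and 382. Hand1 and Plac1 were below the filter in both groups and so are outside the counts above. Igf2 was at least 2-fold lower than DMSO at 24 h and so is not one of the late genes. These 5 genes were thus not 2-fold above DMSO at 15 d. The imprinted gene Sfmbt2, in contrast, was at 520.2 and 1067, past 2-fold, and Peg10 was at 3219.7 and 3334. Among the lower genes Irf8 was at 79.8 and 56.9, Cacna1h at 41.9 and 72.6 and Txnip at 2421 and 2860.4, none of them 2-fold below DMSO. The 7 d and 15 d values come from separately normalised tables, so time and experiment cannot be told apart.

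After washout few of the climbing genes were 2-fold above DMSO. Of the 242, 82 reached a mean of 20 in DMSO or recovery, and 8 of these (9.76%) were at least 2-fold higher, where 1.28% of all genes were. Of the 82, 23 reached 20 in recovery alone and 1 in DMSO alone, so this share is in part set by the filter. Zscan4d was at 108 with DMSO at 15 d, 2569.6 with dTAG-13 and 206 in recovery, and MERVL-int at 5617, 147295 and 11016. The Xlr genes stood apart in these means. All 6 that passed were at least 2-fold higher in recovery than in DMSO, with a median of 2.59 on the log2 scale. In recovery Xlr3a was at 434, Xlr3b at 248 against 44.2 in DMSO, and Xlr3c at 78.3 against 11.0. Xlr3c passed the filter through recovery alone. Rhox5 was at 129 in recovery, and Magea5 and Pramel6 were listed at 0. Of 12 fibroblast markers 9 were at least 2-fold lower in recovery than in DMSO at 15 d (median -1.19), and their part in these values was not tested.

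Cells with a MERVL-GFP reporter, sorted into GFP-negative mESCs and GFP-positive 2CLCs after 72 h, give the same genes at a time between 24 h and 7 d. In GFP-negative mESCs, 202 of 206 climbing genes (98.1%) were at least 2-fold higher with dTAG-13 than with DMSO, where 4.6% of all genes were, as were 32 of 88 late genes (36.4%). Of the 206, 141 reached 20 there with dTAG-13 but not with DMSO, as did 22 of the 88, so these shares are in part set by the filter. Of 11 fibroblast markers that passed 8 were also higher in these dTAG-13 cells (72.7%, median 1.11), as were 9 of 13 mitochondrially encoded genes, and their part in the result was not tested. The climbing genes had a median of 7.40 on the log2 scale between 2CLCs and mESCs of the DMSO cells, and the late genes one of 0.50. The median over all genes was -0.087. Of 209 climbing genes that passed there, 144 reached 20 in 2CLCs alone, as did 18 of 84 late genes. The 2 medians are thus in part set by the filter. Of the late lower genes 57 of 196 (29.1%) were at least 2-fold lower in dTAG-13 mESCs (1.9% of all genes), and Irf8 was at 115 with DMSO and 24.8 with dTAG-13 there. Of the 196, 52 reached 20 with DMSO but not with dTAG-13, so this share is largely set by the filter. Of 8 trophoblast genes that passed in these mESCs 0 were higher and 4 were lower, with Krt8 at 56.5 and 23.4. Hand1, at 10.4 and 3.69, was below 20 in both and is not one of the 8. Xlr3a was level there, at 632 and 679, while Xlr3c was at 16.6 and 50.4. The sort used a MERVL reporter, so MERVL between 2CLCs and mESCs is no finding.

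A further experiment gives values for every library. Wild-type J1 mESCs and mESCs without Dppa4 were given DMSO or UNC0638, which inhibits the enzymes EHMT1 and EHMT2, for 48 h, with 3 clonal lines per group by the methods. Dppa4 had normalised counts of 700.4, 868 and 920.5 in wild-type DMSO, 726, 775 and 772 in wild-type UNC0638, and 0 in all 6 KO libraries. limma with Benjamini-Hochberg adjustment over 17171 genes called 71 genes higher (0.413%) and 9 lower (0.0524%) in KO cells at an adjusted p under 0.05 and 2-fold, and 0 in wild-type cells, where 1497 had an unadjusted p under 0.05. Wild-type libraries of the same replicate number deviated together, and wild-type libraries alone with the replicate as a block gave 173 higher and 13 lower (edgeR and DESeq2 without a block gave 0 and 14 calls). In the model of all 12 libraries, limma with the replicate block gave 0 calls in wild type. The limma calls thus came only with the wild-type libraries taken alone, a fit chosen after seeing the data. The difference between KO and wild type gave 0 calls by limma, edgeR and DESeq2, with 1071 at an unadjusted p under 0.05 by limma.

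The climbing genes were read in both genotypes. Of the 242, 125 were measured, 103 (82.4%) were at least 2-fold higher with UNC0638 in wild-type cells whatever their p (5.67% of all genes), 29 (23.2%) were so in KO cells (6.37% of all genes), and 61 had 0 in all 6 KO libraries. These 61 passed the filter through wild-type libraries alone, so the shares do not compare the genotypes. UNC0638 libraries alone could also carry a gene past the filter of 10 in 3 libraries. Spopfm1, for example, was at 0, 0 and 15.7 in wild-type DMSO and 12.3, 13.1 and 50.3 with UNC0638. The shares are thus in part set by the filter. The difference between KO and wild type passed limma for 0 of the 125. Zscan4d had 18.6, 62.7 and 209.8 normalised counts in wild-type DMSO, 122, 170.0 and 1172 in wild-type UNC0638 and 0 in every KO library. The wild-type groups overlap, and the log2 difference of 2.18 (SE 0.87) did not pass limma, with an adjusted p of 0.562. Within the same-numbered pairs it was higher in 3 of 3, and limma on the wild-type libraries with the replicate as a block gave an SE of 0.244 and an adjusted p of 0.00273. Usp17lb was 30.3, 77.5 and 216 in wild-type DMSO, 227, 340.1 and 1421 in wild-type UNC0638, and 0 in all KO libraries. It was higher in 3 of 3 wild-type pairs, with a log2 difference of 2.57 (SE 0.183) and an adjusted p of 0.000391 by limma with the block on the wild-type libraries alone.

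**Figure D5:**
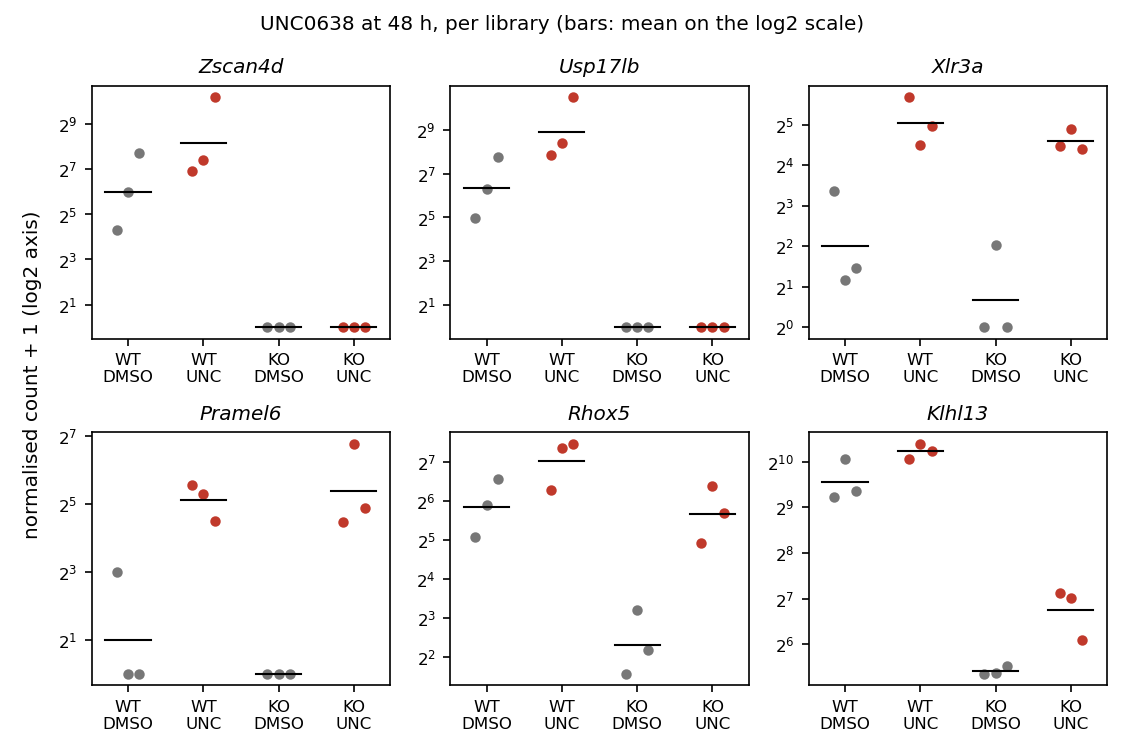
Normalised counts (1 added, log2 axis) of 6 genes in each of the 12 libraries of wild-type (WT) and Dppa4 KO cells given DMSO (grey) or UNC0638 (UNC, red) for 48 h, with black bars for the mean on the log2 scale. Zscan4d and Usp17lb lie at 0 counts in all 6 KO libraries, while Xlr3a, Pramel6, Rhox5 and Klhl13 are higher with UNC0638 in the KO without overlap.

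Genes of several courses were called higher in KO cells, where 0.413% of all genes were. Of 125 climbing genes measured 3 were called higher (2.4%), and of 235 plateau genes 7 (2.98%). Of the 149 late genes, 117 were measured and 6 were called higher (5.13%), Pramel6, C8b, Xlr3a, Rhox5, Gm47518 and Klhl13. Genes with 0 in all 6 KO libraries could not be called, and these were 61 of the 125, 6 of the 235 and 0 of the 117. Pramel6 and Xlr3a reached 10 in UNC0638 libraries alone. The shares are thus in part set by the filter and do not rank the courses. Xlr3a had 0, 3.06 and 0 normalised counts in KO DMSO and 21.2, 29.0 and 20.1 in KO UNC0638, a log2 difference of 3.92 (SE 0.78, adjusted p = 0.0388 by limma). Rhox5 was at 1.96, 8.15 and 3.48 against 29.4, 82.8 and 50.6, a difference of 3.36 (SE 0.53, adjusted p = 0.0164 by limma). Both were higher in 3 of 3 KO libraries. Pramel6 had 0 in the 3 KO DMSO libraries and 21.2, 109 and 28.8 with UNC0638, which is at least 16.7-fold higher against a floor of 3 reads per library (adjusted p = 0.0185 by limma). Klhl13 was at 40.1, 40.8 and 45.3 against 138, 129 and 67.2, a difference of 1.32 (SE 0.27, adjusted p = 0.0398 by limma). In wild-type DMSO the means were 773 for Klhl13, 62.0 for Rhox5 and 2.33 for Pramel6. The KO UNC0638 means of Klhl13 (111) and Rhox5 (54.3) thus lay below untreated wild type, and that of Pramel6 (52.8) above it. In wild-type cells Xlr3a was at 9.31, 1.23 and 1.75 against 50.2, 21.5 and 30.3, a difference that did not pass limma (adjusted p = 0.562). On the wild-type libraries alone with the block the difference was 3.05 (SE 0.586, adjusted p = 0.015 by limma), and Xlr3a was higher in 3 of 3 pairs. The KO groups did not overlap in these 4 genes. The calls rest on few libraries, since without the second KO UNC0638 library 2 genes in all were called in the KO.

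Few of the late lower genes were called. Of the 262 late lower genes that were measured, 33 were at least 2-fold higher and 33 at least 2-fold lower with UNC0638 in KO cells (3.45% of all genes lower), and 3 were called lower (0.0524% of all genes), Nptxr, Gm5540 and Cntn2. Irf8 was at 84.9, 25.8 and 30.6 in wild-type DMSO and 29.1, 23.4 and 31.9 with UNC0638, a log2 difference of -0.53 (adjusted p = 0.662 by limma). Hand1 was at 17.5, 102 and 119 against 9.69, 111 and 106, and these groups overlap.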

How the data were processed

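Poly-A RNA of 45 mESC libraries in 15 groups of 3 was sequenced. Per the methods, the authors trimmed reads with Trim Galore 0.6.7 and aligned them end to end with STAR 2.7.10 to mm10 (GRCm38) with introns disallowed, so that reads across exon junctions can be lost, and with each multimapping read put at 1 random best place. TEcounts with default options counted GENCODE vM25 genes and repeat families. The deposited signal values are counts divided by size factors of DESeq2 1.34.0. The deposited time course, washout and sorting tables hold the authors' group means, normalised per table, so depth per library is unknown there and ratios were taken within a table. The deposited columns of the authors' own fold changes and p-values, and the repeat table of the Dppa4 experiment, were not used.

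Ratios were taken on log2(mean + 1) with the higher mean at least 20 (Python 3.11.15, pandas 2.3.3). In the Dppa4 experiment 100% of values gave whole reads (tolerance 1e-06), 8399885 to 12710949 per library. limma 3.58.1 with a trend was run in R 4.3.3 on log2(normalised count + 1) for genes with at least 10 in 3 libraries, and edgeR 4.0.16 and DESeq2 1.42.0 were run on the recovered reads. The scripts were tested on simulated data. Same-numbered wild-type libraries deviated together (correlations 0.25, 0.10 and 0.43), which those of the KO did not in all cases (0.16, -0.09 and 0.01). The p-values measure the spread between the libraries of a group.

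Positions of 16620 of the 16633 genes were matched by Ensembl ID in GENCODE vM21 (GRCm38), and promoters by symbol in a RefSeq table. Named genes are a part of those picked by a rule, namely the largest ratios at a mean of at least 50 with a DMSO ratio within 0.5, the most abundant genes of each course, the leading members of 33 lists and fixed markers. Eomes, H19, Thy1, Dcn, Ascl2, C8b, Gm47518, Nptxr, Gm5540 and Cntn2 were chosen after their values were seen. The members and lists were chosen with earlier results of these data known.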

Additional observations from a re-analysis of the deposited data

How the results depend on the processing

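Without a filter on the mean, the counts past 2-fold were 2729 genes and 61 repeat families with dTAG-13 and 1585 and 32 with DMSO. At 4-fold they were 100 and 2 with dTAG-13 and 15 and 0 with DMSO. At a mean of at least 100 they were 275 genes with dTAG-13 and 88 genes and 0 families with DMSO. Taking the DMSO difference away gave 1278 genes (603 higher, 675 lower) and 31 families (23 higher, 8 lower). In DMSO a pseudocount of 5 gave 178 genes and 0 families, a pseudocount of 0.5 gave 5 families, and centring on the median gave 5. The courses at a mean of at least 100, an alternative chosen after seeing the data, held 98 genes up at both steps, 80 up and then level, 55 late higher and 104 late lower. Of 226 named genes 39 moved, 185 did not and 2 reversed once the DMSO difference was taken away, Egr1 (0.28) and Acta2 (-0.019).

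In the Dppa4 experiment, wild-type libraries alone with the replicate block, chosen after seeing the data, gave 186 calls and DESeq2 gave 14. In the model of all 12 libraries limma gave 0 in wild type, with the block and without it. In KO cells, against 80, no filter gave 12, the replicate block 171, edgeR 37 and DESeq2 282. Leaving out 1 library gave 0 to 1 calls in wild type, 2 to 372 in KO and 0 to 1 for their difference. The KO count was 372 without KO UNC0638 replicate 1, 2 without its replicate 2 and 30 without its replicate 3, 18 and 40 without KO DMSO replicates 1 and 2, 35 without wild-type DMSO replicate 2, and 25, 25 and 23 without wild-type UNC0638 replicates 1, 2 and 3. The causes were not tested. No paired analysis was possible because the time course is given as group means only. A value carried by 1 clone cannot be seen in those means.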
